A study of Sorghum bicolor with 14 samples.

Results

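The sucrose synthase family of sorghum is described here through 5 gene IDs given as its members, all 5 of which are among the 31337 genes of the deposited table. They are Sobic.010G072300, Sobic.001G344500, Sobic.001G378300, Sobic.004G357600 and Sobic.010G276700, and the digits after the word Sobic place them, by the convention of these IDs, on chromosomes 1, 4 and 10. The table gives TPM, transcript abundance corrected for gene length and scaled to a fixed total per column, without gene names, and no ID of it occurs in the reference gene table used here, so the family membership rests on the list and no role of its own is given to any single ID. RNA came from the field-grown cultivar M35-1 at 5 stages, the unpollinated pistil 1 to 2 days before pollination (1-2 DBP) and material collected 0 to 2, 10, 20 and 30 days after pollination (DAP). No genotype or treatment other than the stage is named. The 0-2 DAP material carries pistil as its source and seed as its tissue, and the 3 later stages are labelled seed. Per the labels 30 DAP has 2 libraries and every other stage 3, and nothing says whether these came from separate plants. The authors deposited 1 TPM value per gene and stage, so no SD, n or p-value can be given and no difference between stages has a replicate check.

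Sucrose synthase is a mostly cytosolic plant enzyme that splits sucrose with UDP into UDP-glucose and fructose, a reaction that can run in both directions. UDP-glucose is the building block of cellulose and of callose, and in cereal endosperm it also leads, through ADP-glucose, to starch. In maize, the Shrunken1 gene encodes a sucrose synthase of the endosperm, and its loss gives collapsed kernels with less starch. The other enzymes that split sucrose are the invertases, which release glucose and fructose and do not save the energy of the bond.

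Every column of the table summed to 1000000 TPM, so a larger share for some genes means a smaller share for the rest. The 3 IDs listed as kafirins, the storage proteins of sorghum endosperm, are given to describe the stages. They were listed from memory with earlier results of these data known, so they are no independent check. Their sum was 0.0334 TPM in the unpollinated pistil, 0.304 TPM at 0-2 DAP, 88249 TPM in the 10 DAP seed, 122957 TPM in the 20 DAP seed and 67.2 TPM in the 30 DAP seed, so these storage transcripts were abundant at 10 and 20 DAP, near 0 in the early stages and sparse in the 30 DAP seed. Among the 24404 genes that reached 1 TPM in any stage, the median gene had 13.7, 13.9, 7.92, 5.06 and 2.60 TPM in stage order. What lowers this median in the later columns was not tested. The number of reads behind each value is unknown. In whole tissue, fewer cells of a type and less RNA per cell cannot be told apart.

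Pistil and filling grain were carried by the same 2 IDs, not by a different one each. Sobic.010G072300 and Sobic.001G344500 together held 86.4% of the summed TPM of the 5 IDs in the unpollinated pistil, 92.3% at 0-2 DAP, 95.3% in the 10 DAP seed and 86.7% in the 20 DAP seed. Their order differed between pistil and grain: Sobic.001G344500 was first in both early stages and Sobic.010G072300 in the grain at 10 and 20 DAP. At 30 DAP their joint share was 29.4%, and Sobic.001G378300 held 69.8%. Sobic.004G357600 and Sobic.010G276700 were minor at every stage, with shares of at most 5.31% and 1.06%.

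**Figure D1:**
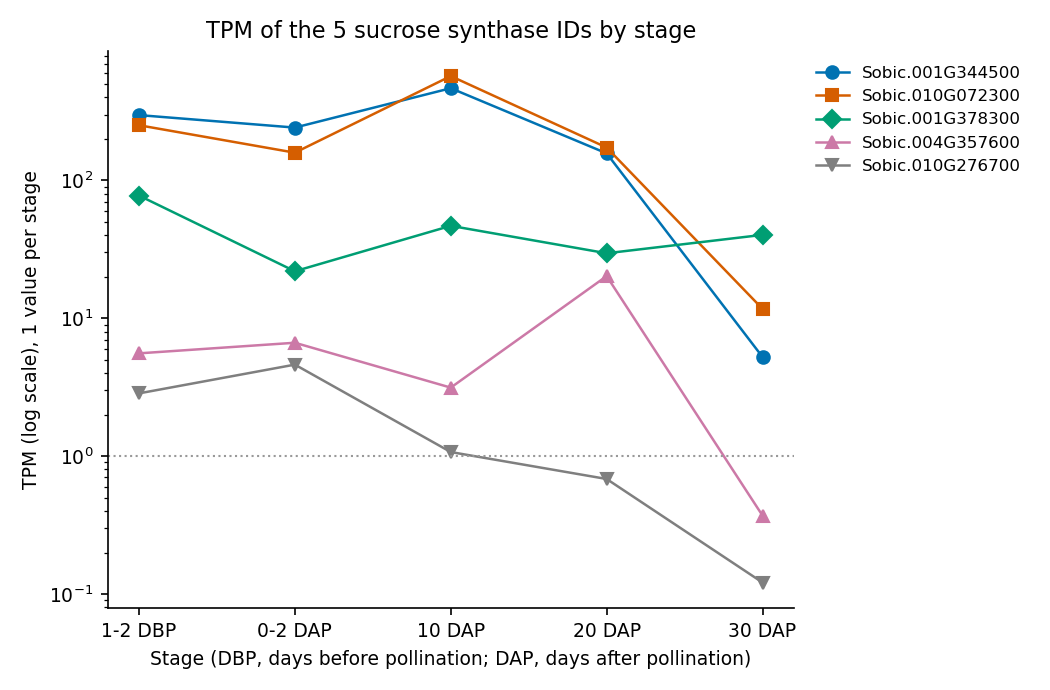
TPM of each of the 5 sucrose synthase IDs on a log axis against stage, with 1 deposited value per point and a dotted line at 1 TPM. Sobic.010G072300 and Sobic.001G344500 run close together up to 20 DAP and stand at 11.7 and 5.23 TPM at 30 DAP, where Sobic.001G378300 is at 40.2 TPM.

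Sobic.010G072300 had 251 TPM in the unpollinated pistil, 159 TPM at 0-2 DAP, 569.9 TPM in the 10 DAP seed, 173 TPM in the 20 DAP seed and 11.7 TPM in the 30 DAP seed. Its highest value, at 10 DAP, was the highest of any member at any stage and ranked 155th among all genes of that column. The 30 DAP value was the lowest, and the highest was 48.8 times as large. Of the 24404 genes, 94.7% had a smaller range over the 5 stages on the log2(TPM + 1) scale.

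Sobic.001G344500 had 297 TPM in the unpollinated pistil, 241 TPM at 0-2 DAP, 465 TPM in the 10 DAP seed, 157 TPM in the 20 DAP seed and 5.23 TPM in the 30 DAP seed. As deposited, it shared with Sobic.010G072300 the highest stage, 10 DAP, the second highest, 1-2 DBP, and the lowest, 30 DAP. After median-ratio scaling the highest and lowest stages were the same, but 20 DAP was second for both. Sobic.001G344500 then had 233 at 20 DAP against 158 at 1-2 DBP, and Sobic.010G072300 had 257 against 133. Among all genes 15.2% had their highest value at 10 DAP. Averaged over the 5 stages, Sobic.010G072300 had 232.7 TPM and Sobic.001G344500 had 233.1 TPM, ranks 539 and 537 in the table.

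The ratio of Sobic.010G072300 to Sobic.001G344500 was 0.844 in the unpollinated pistil, 0.658 at 0-2 DAP, 1.22 in the 10 DAP seed, 1.10 in the 20 DAP seed and 2.23 in the 30 DAP seed. Dividing a column by 1 factor leaves such a ratio as it is, while quantile normalization changed it to 0.606 at 0-2 DAP and 1.81 in the 30 DAP seed and kept the order of the pair at every stage. Sobic.001G344500 was thus the more abundant of the pair before and just after pollination and the less abundant in the 3 seed columns. With 1 value per stage, whether these neighbours in the order of levels differ by more than the spread between libraries cannot be read from the table. The libraries of the early and of the seed columns are also numbered in separate blocks, so stage and block cannot be told apart.

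Sobic.001G378300 had 77.5 TPM in the unpollinated pistil, 21.9 TPM at 0-2 DAP, 46.8 TPM in the 10 DAP seed, 29.6 TPM in the 20 DAP seed and 40.2 TPM in the 30 DAP seed. Its highest deposited value was 3.54 times its lowest, the smallest such ratio of the 5 members, but after median-ratio scaling the ratio was 8.44 and that of Sobic.010G276700, at 8.27, was smaller. It was the 1 member whose lowest value was not at 30 DAP. At 30 DAP it stood above 92.1% of the 24404 genes, compared with 89.4% at 1-2 DBP, 61.8% at 0-2 DAP, 88.7% at 10 DAP and 87.4% at 20 DAP. It was the third member up to 20 DAP, with Sobic.001G344500 at 3.83 times its level in the unpollinated pistil and 9.95 times in the 10 DAP seed, and the first at 30 DAP, at 7.68 times Sobic.001G344500 and 3.44 times Sobic.010G072300. After the columns were scaled to a common centre by median-ratio size factors or by quantile normalization, its highest stage was 30 DAP and not 1-2 DBP, while the highest stages of the other members stayed as deposited.

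Sobic.004G357600 had 5.56 TPM in the unpollinated pistil, 6.64 TPM at 0-2 DAP, 3.14 TPM in the 10 DAP seed, 20.2 TPM in the 20 DAP seed and 0.370 TPM in the 30 DAP seed. Its highest stage was 20 DAP, at 6.44 times its 10 DAP value, and 4.45% of all genes had their highest value in that column as deposited, or 12.1% once divided by median-ratio size factors. It stood above 81.4% of genes at 20 DAP, against 30.8% at 10 DAP.

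Sobic.010G276700 had 2.85 TPM in the unpollinated pistil, 4.61 TPM at 0-2 DAP, 1.07 TPM in the 10 DAP seed, 0.683 TPM in the 20 DAP seed and 0.121 TPM in the 30 DAP seed. It was the lowest member in every column and the 1 member whose 2 highest values were those of the early stages. Its highest share of the family, at 0-2 DAP, was 1.06%. Its levels were under 1 TPM from 20 DAP on.

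**Figure D2:**
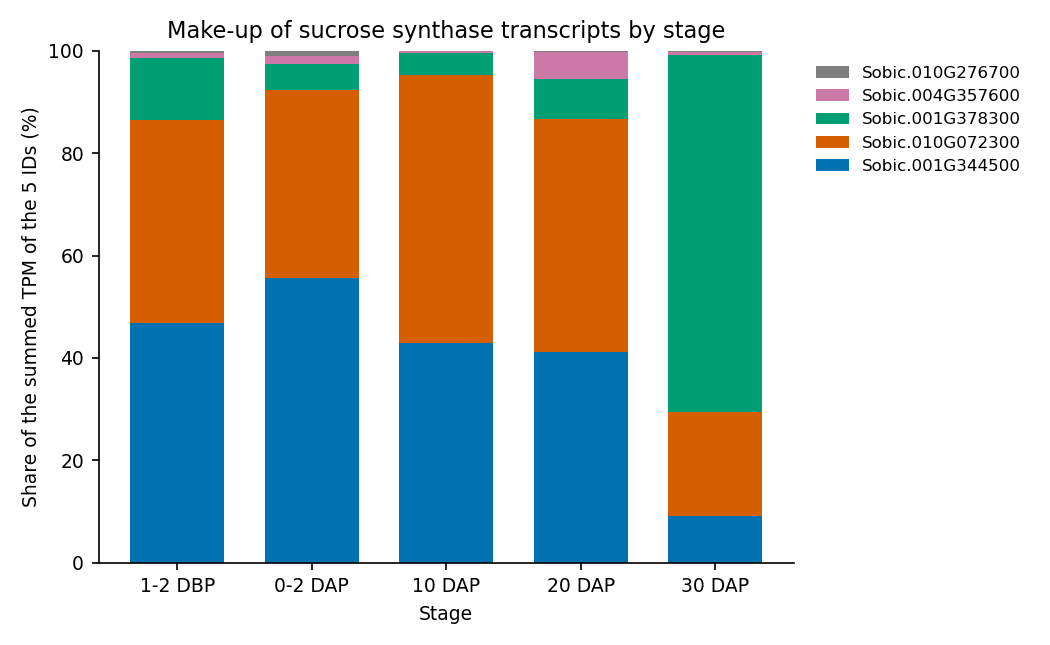
Stacked share of each ID in the summed TPM of the 5 sucrose synthase IDs, in percent, by stage. Sobic.001G378300 takes 69.8% at 30 DAP and between 4.31% and 12.2% in the other 4 stages.

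The summed TPM of the 5 IDs was 634 in the unpollinated pistil, 433 at 0-2 DAP, 1086 in the 10 DAP seed, 380.1 in the 20 DAP seed and 57.6 in the 30 DAP seed. The 10 DAP sum amounts to 0.109% of the whole column, and the 30 DAP sum to 0.00576%. As deposited the unpollinated pistil was second to 10 DAP. After median-ratio scaling, which divides each column by the median over genes of their ratio to the gene's geometric mean, the sums were 336, 229, 1052, 565 and 140.1 in stage order, and 20 DAP was second. With quantile-normalized columns they were 529, 356, 1190.35, 507 and 114, with the pistil second again. The highest column, 10 DAP, and the lowest, 30 DAP, were the same under each.

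Differences between stages were taken on the log2(TPM + 1) scale, where the added 1 TPM shrinks the differences of low genes, and an ID was called higher or lower when 2 values differed by at least 2-fold. At 0-2 DAP against 1-2 DBP, which asks what differs around pollination, 1 of the 5 members was lower and none was higher, where 6.5% of all 24404 genes were lower and 8.82% higher. The lower member was Sobic.001G378300, with 21.9 TPM at 0-2 DAP against 77.5 TPM at 1-2 DBP, a log2 difference of -1.78. Only 1.91% of genes had a more negative difference. Sobic.010G072300 differed by -0.66, Sobic.001G344500 by -0.30, Sobic.004G357600 by 0.22 and Sobic.010G276700 by 0.54, all within 2-fold, and the median of all genes was 0.02. These 5 calls were the same under each alternative that could be computed.

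At 10 DAP against 0-2 DAP, the step to the growing grain, 2 members were higher and 1 was lower. Of all genes 11% were higher and 39.7% lower, and the median gene differed by -0.72. Sobic.010G072300 had 569.9 TPM at 10 DAP against 159 TPM at 0-2 DAP, a log2 difference of 1.84, which is 2.55 above the median gene. Sobic.001G378300 had 46.8 TPM at 10 DAP against 21.9 TPM at 0-2 DAP, a difference of 1.06 that was 0.94 with a pseudocount of 5. Sobic.001G344500 was just inside the limit at 0.95, with 465 TPM at 10 DAP against 241 TPM at 0-2 DAP, and lay past it after median-ratio scaling, at 1.81, and with quantile-normalized columns, at 1.29. Sobic.010G276700 was the lower member at -1.44, and it was within 2-fold after median-ratio scaling, at -0.76. Sobic.004G357600 differed by -0.88. The accession numbers of the libraries fall into separate blocks that part at this step, so stage and block cannot be told apart.

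At 20 DAP against 10 DAP, within grain filling, 1 member was higher and 2 were lower, where 4.23% of all genes were higher and 18.8% lower. The higher member was Sobic.004G357600, with 20.2 TPM at 20 DAP against 3.14 TPM at 10 DAP and a log2 difference of 2.36, above 98.7% of all genes. Its difference lay between 1.63 and 2.98 over the alternatives. Both abundant members were lower: Sobic.010G072300 had 173 TPM at 20 DAP against 569.9 TPM at 10 DAP, a difference of -1.72, and Sobic.001G344500 had 157 TPM at 20 DAP against 465 TPM at 10 DAP, a difference of -1.56. The median gene differed by -0.47 between these columns, and after median-ratio scaling the values were -1.10 for Sobic.010G072300 and -0.95 for Sobic.001G344500, which was then within 2-fold. Sobic.001G378300 differed by -0.64 and Sobic.010G276700 by -0.30.

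The comparison of 30 DAP with 20 DAP, towards maturity, had 3 lower members and no higher one, where 28.2% of all genes were lower and 9.03% higher. Sobic.001G344500 had 5.23 TPM at 30 DAP against 157 TPM at 20 DAP, a log2 difference of -4.66, and 1.32% of genes had a more negative one. Sobic.010G072300 had 11.7 TPM at 30 DAP against 173 TPM at 20 DAP, a difference of -3.78, with 2.37% of genes more negative. Sobic.004G357600 had 0.370 TPM at 30 DAP against 20.2 TPM at 20 DAP, a difference of -3.95. These 3 were lower under every alternative tried, with Sobic.001G344500 at -3.66 or below and Sobic.004G357600 at -2.23 or below. Sobic.001G378300 had 40.2 TPM at 30 DAP against 29.6 TPM at 20 DAP, a difference of 0.43 in the deposited values, 1.14 after median-ratio scaling and 0.59 with quantile-normalized columns. Sobic.010G276700 differed by -0.59, between values of 0.121 TPM at 30 DAP and 0.683 TPM at 20 DAP.

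**Figure D3:**
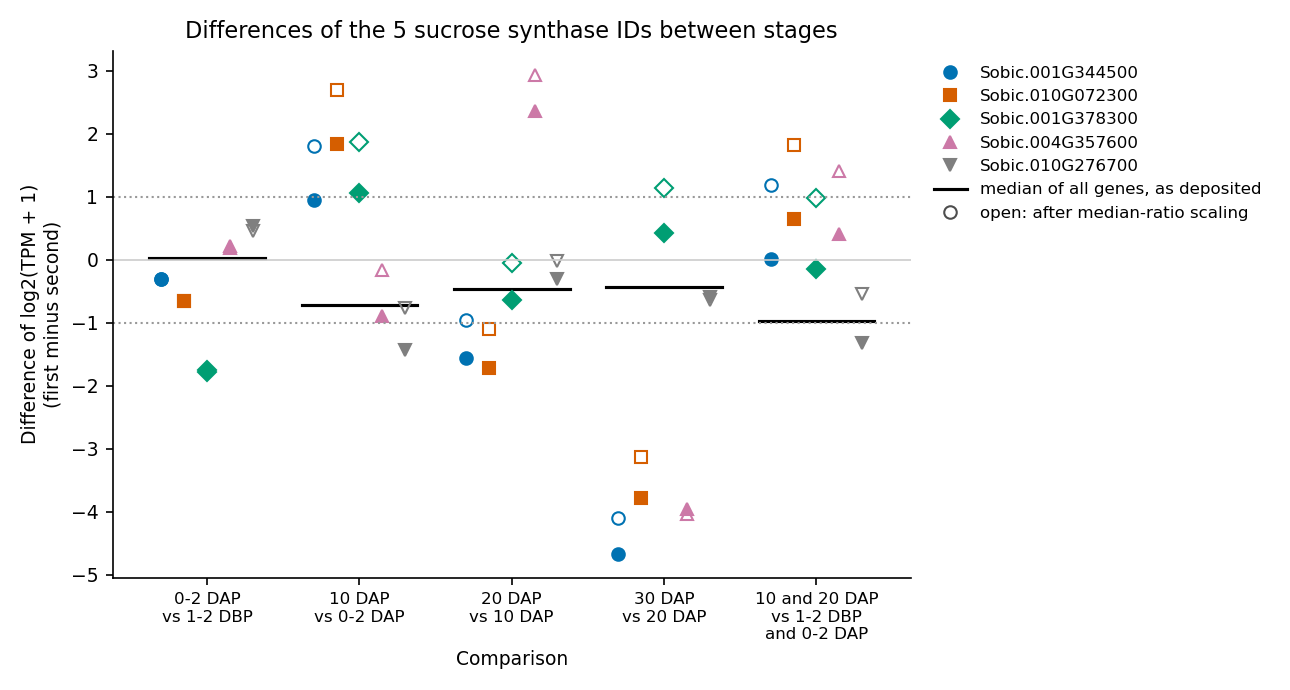
Difference of log2(TPM + 1), first stage minus second, of the 5 sucrose synthase IDs in 5 comparisons. Filled symbols are as deposited, open symbols are after median-ratio scaling, black bars mark the median of all genes as deposited and dotted lines mark 2-fold; the 30 DAP comparison holds the most negative values, and scaling moves the members upwards in most later comparisons.

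Grain and pistil were also set against each other with the log2 values of 10 and 20 DAP averaged and those of 1-2 DBP and 0-2 DAP averaged, stages that are not replicates of one another. As deposited, 1 of the 5 members was lower in the grain, Sobic.010G276700 at -1.32, and none was higher, where 49.0% of all genes were lower and 9.77% higher. Sobic.010G072300 differed by 0.65, Sobic.004G357600 by 0.40, Sobic.001G344500 by 0.01 and Sobic.001G378300 by -0.15. The median gene differed by -0.97, so these 4 lay 1.63, 1.38, 0.99 and 0.82 above it. After median-ratio scaling 3 members were past 2-fold and higher in the grain, Sobic.010G072300 at 1.82, Sobic.004G357600 at 1.41 and Sobic.001G344500 at 1.19, and none was lower. Of all genes 19.3% were then higher and 15.4% lower. The grain value of Sobic.004G357600 rested on 20 DAP, at 30.0 after this scaling. Its 10 DAP value was 3.04, against 2.95 at 1-2 DBP and 3.51 at 0-2 DAP. As deposited, its 10 DAP value was below both early stages. Whether the abundant members count as level or as higher in the grain therefore depends on the scaling. Grain and pistil stages also lie in the separate blocks of libraries, so stage and block cannot be told apart.

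Set against the unpollinated pistil, the 30 DAP seed had, as deposited, 51.9% of the TPM of Sobic.001G378300, where the median of the 21171 genes with at least 1 TPM at 1-2 DBP was 17.4%. The 30 DAP value was 4.66% of that at 1-2 DBP for Sobic.010G072300, 1.76% for Sobic.001G344500, 6.66% for Sobic.004G357600 and 4.25% for Sobic.010G276700. Of the 5 members, 1 was above the median gene and 4 were below it. After median-ratio scaling Sobic.001G378300 was higher at 30 DAP, at 97.8 against 41.1 at 1-2 DBP. The other 4 members stayed lower at 30 DAP, with Sobic.010G072300 at 28.4 against 133 and Sobic.001G344500 at 12.7 against 158. The compared stages also lie in separate blocks of libraries, so stage and block cannot be told apart.

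Likeness of pattern was measured as the Euclidean distance between log2(TPM + 1) profiles over the 5 stages, each centred on its own mean. Among the members the closest pair was Sobic.010G072300 and Sobic.001G344500, at 1.23, and the most distant was Sobic.001G344500 and Sobic.001G378300, at 5.05. Of the 12587 other genes with at least 20 TPM in their highest stage, 38 lay closer to Sobic.010G072300 than Sobic.001G344500 did. The nearest of these genes to Sobic.010G072300 was Sobic.010G105300, at a distance of 0.48. Sobic.003G049000 was nearest to Sobic.001G344500, at 0.49, and Sobic.004G018400 to Sobic.001G378300, at 0.50. Sobic.004G260800, at 0.85, was nearest to Sobic.004G357600, and Sobic.001G122500, at 0.14, to Sobic.010G276700. In TPM this last pair was less alike. From 0-2 DAP to 30 DAP, Sobic.001G122500 went from 22.5 down to 4.09, but Sobic.010G276700 from 4.61 down to 0.121. The added 1 TPM shrinks differences at such low levels, so this smallest distance does not mark the best match in TPM. The 5 nearest IDs carry no names in the sources used here, and with 5 points a small distance is a description only.

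Other steps of sucrose use were followed through 7 IDs listed as starch synthesis and 6 listed as sucrose transport, assignments which, like that of the kafirins, were made from memory of the sorghum genome and could be checked against no annotation. The 7 starch synthesis IDs summed to 408 TPM in the unpollinated pistil, 605 TPM at 0-2 DAP, 3695 TPM in the 10 DAP seed, 2963 TPM in the 20 DAP seed and 47.3 TPM in the 30 DAP seed. The sucrose synthase sum was 1.55 times the starch sum in the unpollinated pistil, 0.716 times at 0-2 DAP, 0.294 times in the 10 DAP seed, 0.128 times in the 20 DAP seed and 1.22 times in the 30 DAP seed. Sobic.010G022600, the most abundant of the starch IDs, had 1971 TPM in the 10 DAP seed and 2191 TPM in the 20 DAP seed and made up most of the starch sum in those columns. Sobic.007G101500 had the next highest single value of the list, 526 TPM, with 81.1 TPM in the unpollinated pistil, 118 TPM at 0-2 DAP, 526 TPM in the 10 DAP seed, 179 TPM in the 20 DAP seed and 1.49 TPM in the 30 DAP seed. Its highest and lowest stages were those of Sobic.010G072300 and Sobic.001G344500.

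Call by call, sucrose synthase and starch IDs overlapped in part. At 10 DAP against 0-2 DAP, 2 of 5 sucrose synthase IDs and 5 of 7 starch IDs were higher, with medians of 0.95 and 2.15 on the log2 scale, where 11% of all genes were higher. After median-ratio scaling 3 and 6 were higher, and 19.7% of all genes. At 20 DAP against 10 DAP, 2 of 5 sucrose synthase IDs and 4 of 7 starch IDs were lower, with medians of -0.64 and -1.15, where 18.8% of all genes were lower. After median-ratio scaling 1 and 0 were lower, and 8.79% of all genes. At 30 DAP against 20 DAP, 3 of 5 sucrose synthase IDs and 7 of 7 starch IDs were lower, with medians of -3.78 and -5.34, where 28.2% of all genes were lower. After median-ratio scaling 3 and 6 were lower, and 20.4% of all genes. In the grain against the pistil the medians were 0.01 for the 5 sucrose synthase IDs and 1.90 for the 7 starch IDs, against -0.97 over all genes, and they were 1.19 and 3.03 after median-ratio scaling.

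The 6 IDs listed as sucrose transport, which move sucrose across membranes, summed to 133 TPM in the unpollinated pistil, 176 TPM at 0-2 DAP, 74.2 TPM in the 10 DAP seed, 42.8 TPM in the 20 DAP seed and 24.4 TPM in the 30 DAP seed, and 4 of them had at least 1 TPM at some stage. Unlike the sucrose synthase sum, theirs was highest at 0-2 DAP. Of the 4, none was higher and 2 were lower at 10 DAP than at 0-2 DAP as deposited, where 39.7% of all genes were lower, so the count is near the background. After median-ratio scaling 1 was higher and 1 lower, where 19.7% of all genes were higher and 15.4% lower. The sucrose synthase sum was 14.6 times the transport sum at 10 DAP and 2.36 times at 30 DAP. Sobic.004G190500 had the highest value of the list, 70.2 TPM at 0-2 DAP, and stood at 19.1 TPM in the 10 DAP seed and 0.470 TPM in the 20 DAP seed. Sobic.004G353600 followed with 51.3 TPM at 0-2 DAP and 12.5 TPM in the 10 DAP seed.

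**Figure D4:**
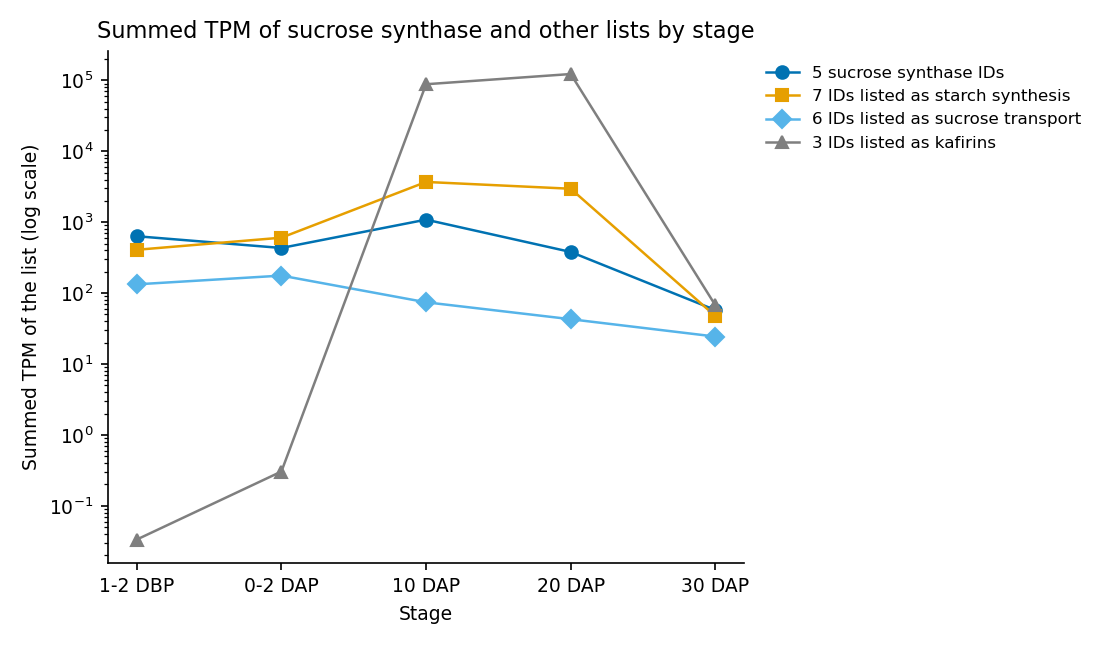
Summed TPM on a log axis by stage for the 5 sucrose synthase IDs, the 7 IDs listed as starch synthesis, the 6 listed as sucrose transport and the 3 listed as kafirins. The sucrose synthase sum has its highest point, 1086 TPM, at 10 DAP, and its lowest, 57.6 TPM, at 30 DAP.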

How the data were processed

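RNA-seq of 14 libraries from 5 stages was deposited as a table of TPM values, named so per the file headers, in which each stage is 1 column. How libraries were merged into a stage value is not given in the sources used here, nor are build and annotation. The submitters' processing notes name HISAT2, featureCounts 2.2.0 and DESeq2 and leave their use unstated. The depth per library is unknown, so no counting interval is given. Per the labels' protocols, RNA came from a modified Trizol extraction, and a TruSeq stranded and a NEBNext directional kit are both named, without saying which library had which.

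Planned limma tests needed a value per library and were replaced by a 2-fold rule on log2(TPM + 1). It was applied to 24404 genes of at least 1 TPM in any stage. A run on simulated data without noise, with planted differences well past 2-fold, tested only the code. It gives no error rate for the rule in these data. The named IDs are the 5 members, for each the nearest gene of at least 20 TPM, and for each list at most 2 with the highest TPM. The members and lists were chosen with earlier results of these data known. Lists by gene description could not be made, as 0 of 31337 IDs matched the reference table. The alternatives changed the pseudocount (0.1 or 5), the filter (none or 5 TPM) or the column scaling (median-ratio size factors, quantiles, or removal of the top 100 genes by mean TPM). Python 3.11.15, numpy 2.4.6 and pandas 2.3.3 were used.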

Additional observations from a re-analysis of the deposited data

How the results depend on the processing

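Of 170 recomputed log2 differences of the 5 IDs, 134 moved by less than 1.5 times in fold, 36 moved by more, and none past 2-fold changed sign. The 134 include 25 without a filter and 20 with the 5 TPM filter. Those could not move, as the filter only selects genes, so they are no check. Median-ratio size factors moved 15 of 25, normalization to common quantiles 8, removal of the top 100 genes 5, pseudocount 5 moved 5 and pseudocount 0.1 moved 3. Counts of members past 2-fold moved as follows. At 10 DAP against 0-2 DAP, 1 was higher with pseudocount 5 and 3 under both scalings and with the top 100 genes removed, and the number lower was 2 with pseudocount 0.1 and 0 with 5, with the 5 TPM filter, which drops Sobic.010G276700, and under both scalings. At 20 DAP against 10 DAP, 1 was lower under size factors. At 30 DAP against 20 DAP, 1 was higher under size factors and 4 were lower with pseudocount 0.1, where Sobic.010G276700 was at -1.82. With pseudocount 0.1, 10295 of all genes were also lower in this comparison, where the main count was 6890. For 10 and 20 DAP against 1-2 DBP and 0-2 DAP, 3 were higher under size factors, 2 under quantiles and 2 with the top 100 genes removed, and 0 were lower with pseudocount 5, with the 5 TPM filter and under both scalings. The share of the family at 30 DAP was 1.64% for Sobic.004G357600 and 0.626% for Sobic.010G276700 under quantiles, and the other 23 shares moved by less than 1.5 times.

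Over all genes, the numbers higher and lower that moved by more than 1.5 times were these. At 0-2 DAP against 1-2 DBP, 3372 were higher with pseudocount 0.1, and 1013 higher and 862 lower with 5. At 10 DAP against 0-2 DAP, 1673 and 6170 were higher and lower with pseudocount 5, 4816 and 3756 under size factors, and 4373 and 4823 under quantiles. At 20 DAP against 10 DAP, the pairs were 1598 and 6999 with pseudocount 0.1, 554 and 2155 with 5, 1955 and 2144 under size factors, 1973 and 2207 under quantiles, and 1775 and 2937 with the top 100 genes removed. At 30 DAP against 20 DAP, they were 1431 and 3094 with pseudocount 5, 4201 and 4120 under quantiles, and 4569 higher under size factors. For 10 and 20 DAP against 1-2 DBP and 0-2 DAP, they were 1451 and 7886 with pseudocount 5, 4708 and 3764 under size factors, 4248 and 4784 under quantiles, and 3701 and 7295 with the top 100 genes removed. Some all-gene numbers moved by less where a count of members changed. At 10 DAP against 0-2 DAP, 3779 were higher with the top 100 genes removed, where the main count was 2678. There 11195 were lower with pseudocount 0.1 and 8594 with the 5 TPM filter, where the main count was 9697. For 10 and 20 DAP against 1-2 DBP and 0-2 DAP, 10847 were lower with the 5 TPM filter, where the main count was 11959. By construction size factors bring the median gene's difference near 0, while quantiles make the columns alike in their spread of values.

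No paired analysis was possible because each stage has a single deposited value, and leaving out each library was not run for the same reason. Depth is unknown, so values near 0, such as those of Sobic.010G276700 and Sobic.004G357600 at 30 DAP, cannot be separated from sampling.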
